A study of Mus musculus with 20 samples.

Results

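The 9 genes described here act in amyloid precursor processing and were followed through the hippocampus and cortex of bulbectomised mice, out of 55487 gene entries counted. They were listed by name, matched by Ensembl identifier, and all 9 were found and tested in every comparison. The list holds the precursor App and its relative Aplp1, the beta-secretases Bace1 and Bace2, the gamma-secretase subunits Psen2, Aph1a, Ncstn and Psenen, and the alpha-secretase Adam10. The animals were NMRI mice whose olfactory bulbs had been removed, an operation used to model sporadic Alzheimer's disease. From day 14 after surgery they were given either 4 µg of human recombinant HSP70, a heat shock chaperone, or 6.4 µg of recombinant YB-1, a cold shock protein, through the nose once daily for 21 days. Each of the 4 combinations of tissue and treatment had 5 libraries, 20 in all. Animals without surgery or without a chaperone were not analysed here, so a lower value with YB-1 can as well be read as a higher value with HSP70. The ages of the mice are not given in the labels, nor is the animal behind each library, so p-values measure the spread between these libraries.

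The precursor is a membrane protein that is cut in stages. Beta-secretase or alpha-secretase removes its outer part, and gamma-secretase, a complex of a presenilin, nicastrin, an APH-1 subunit and the presenilin enhancer, then cuts the remaining stub within the membrane. Cutting by the beta- and then the gamma-secretase releases the amyloid beta peptide that forms plaques, whereas the alpha cut falls inside that peptide and precludes it.

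Assigned reads ranged from 6414215 to 15148078 per library. In the cortex the HSP70 libraries (12283392 to 15148078) were all deeper than the YB-1 libraries (6414215 to 10763465), so depth and treatment cannot be told apart there. Levels are given in CPM, read counts scaled to a common library total with 1 TMM factor per library. Such a factor leaves in place the trends with GC content and length described below. The tissue labels were checked against marker genes. With either treatment 5 of 5 hippocampal neuron markers were higher in the hippocampus, and 5 of 6 cortical neuron markers were lower. The remaining 1 was above 0, called higher with HSP70 and not called with YB-1. One hippocampal and 1 cortical HSP70 library stood at the ends of a trend described below, and values without them are given below for App, Aplp1, Bace2 and Adam10. The hippocampal library, replicate 5, had the fewest genes with a read, 16889, and the cortical library, replicate 1, the most, 20712. The gene Bc1 took 20.3% of the reads of that hippocampal library, within a range of 3.92% to 20.8% over all libraries. In bulk tissue, fewer cells of a type and less RNA per cell cannot be told apart.

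Aplp1 was by far the most abundant transcript of the list. Per kilobase of the longest annotated transcript, its mean over the 20 libraries was 1714 ± 325 CPM (SD, n = 20), ranging from 1026 to 2242. App, the precursor itself, followed with 115 ± 18.1 CPM per kilobase. Psenen, which encodes the presenilin enhancer, the smallest subunit of gamma-secretase, came next with 42.2 ± 8.47. Ncstn, the subunit that receives the substrate's stub, had 15.2 ± 2.38. These first 4 held their order in 20 of 20 libraries, and the ranges of neighbours did not overlap.

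Below them the levels per kilobase ran together. Psen2, a presenilin, the subunit type that carries the catalytic site, had a mean of 11.8 ± 2.24 CPM per kilobase and was below Ncstn in 16 of 20 libraries. Aph1a, a scaffold subunit, had 7.91 ± 1.65, and Bace1, the main beta-secretase of neurons, had 6.29 ± 0.459. Aph1a was the higher of the 2 in 17 of 20 libraries, although their ranges overlapped and, as given below, the order depends on the length used. Adam10, the main alpha-secretase of neurons, had 3.97 ± 1.32 and was below Bace1 in 19 of 20 libraries. Bace2, which also cuts within the amyloid beta sequence, was the lowest with 0.946 ± 0.267 CPM per kilobase, below Adam10 in 20 of 20 libraries.

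The length used moved the level most for App, Psen2 and Psenen. App has a longest transcript of 8167 bases and a principal transcript of 3176 bases, and its level was 295 CPM per kilobase by the shorter and 72.0 by the union of all its exons; it ranked second by each. Psen2 fell from the fifth to the seventh place when the exon union was used, with 5.52 CPM per kilobase against 6.57 for Aph1a and 6.0 for Bace1. Psenen fell from 42.2 to 23.4 CPM per kilobase with the exon union and kept its place below App. The exon union also left Aph1a and Bace1 in no clear order: Aph1a was the higher in 11 of 20 libraries, and in the cortical HSP70 group its mean of 5.80 was below the 6.08 of Bace1.

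**Figure D1:**
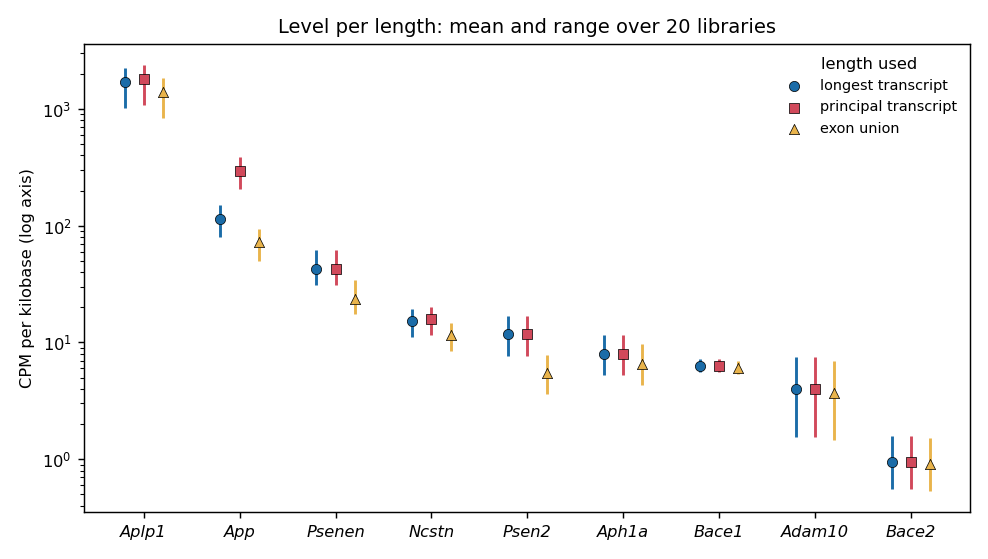
Mean level of each gene in TMM-scaled CPM per kilobase (log axis), with the lowest and highest of the 20 libraries as a line; symbols mark the transcript length used. Aplp1, at 1714 CPM per kilobase of its longest transcript, stands above App at 115, and Bace2 is lowest at 0.946.

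Close relatives of the listed genes put these levels in context. Aplp2, the third member of the precursor family, had 115 CPM per kilobase, the same value as App after rounding. By the exon union the pair had 71.4 and 72.0, but by the principal transcript 115 and 295, so whether they are level depends on the length used. Among the scaffold subunits Aph1a stood above Aph1b at 2.41 and Aph1c at 0.655; Aph1b and Aph1c are near-identical mouse copies, so the split of reads between them is uncertain. Among the candidate alpha-secretases Adam10 stood above Adam9 at 2.02 and Adam17 at 1.52. The balance of beta- to alpha-secretase transcripts, Bace1 to Adam10 per kilobase, had geometric means from 1.57 to 1.90 in the 4 groups, with SDs of 0.42 to 0.61 on the log2 scale (n = 5 each).

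The precursor and its relative did not differ between treatments beyond the spread of the libraries. App measured 1138, 1013, 829, 1029.6 and 649 CPM in the 5 hippocampal HSP70 libraries and 1065, 878, 943, 766 and 866 CPM with YB-1. In the cortex it measured 1221, 1088, 974, 866 and 876 CPM with HSP70 and 858, 766, 1134, 793 and 973 CPM with YB-1. The groups overlapped in both tissues. By edgeR's quasi-likelihood test the log2 fold change of App, YB-1 over HSP70, was -0.04 (95% interval -0.36 to 0.28) in the hippocampus and -0.15 (-0.47 to 0.16) in the cortex, with adjusted p-values of 1.0 and 0.911. Aplp1, whose protein is processed like the precursor but holds no amyloid beta sequence, had means of 4357 ± 815 CPM with HSP70 and 4358 ± 608 with YB-1 in the hippocampus (SD, n = 5 each). Its cortical means were 3875 ± 915 and 4354 ± 992, a log2 fold change of 0.17 (-0.23 to 0.57). Without HSP70 replicate 1 of the cortex, which held the lowest Aplp1 at 2536 CPM, that value was 0.042, and that of App was -0.079. Without HSP70 replicate 5 of the hippocampus the hippocampal values were 0.10 for Aplp1 and -0.15 for App.

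Bace1 was the steadiest of the 9 genes. Its levels lay between 34.0 and 43.6 CPM in all 20 libraries, a coefficient of variation of 7.30%, where the other 8 genes had 15.6% to 33.2%. The hippocampal means were 37.8 ± 1.84 CPM with HSP70 and 36.2 ± 1.10 with YB-1, and the cortical means 38.6 ± 3.30 and 39.8 ± 3.55 (SD, n = 5 each). The log2 fold changes of Bace1, YB-1 over HSP70, were -0.06 (-0.31 to 0.19) and 0.05 (-0.23 to 0.32), so neither interval reached beyond 0.32 in size.

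Bace2 was the gene of the list that set the hippocampal groups apart. With HSP70 it measured 8.79, 10.3, 10.3, 9.13 and 12 CPM in the hippocampus, from 80 to 125 reads per library. With YB-1 it measured 4.92, 6.29, 7.47, 5.96 and 6.81 CPM, from 44 to 73 reads. All 5 HSP70 libraries were above all 5 YB-1 libraries. Such a separation was seen for 0.520% of the 14616 genes tested, and for none of the other 8 members. The log2 fold change of Bace2 was -0.68 ± 0.20 (SE), with a 95% interval of -1.10 to -0.26. The unadjusted p was 0.00369, and over 13723 genes the adjusted p was 1.0, so Bace2 did not pass the threshold of 0.05. The log2 fold change stayed between -0.75 and -0.60 as each of the 10 hippocampal libraries was left out, and was -0.61 without HSP70 replicate 5.

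In the cortex Bace2 measured 5.47, 5.79, 6.49, 6.31 and 8.64 CPM with HSP70, and 6.70, 5.15, 4.24, 6.24 and 7.74 CPM with YB-1. Those groups overlapped, as did those of the other 8 members, where 0.821% of genes did not, with a log2 fold change of -0.12 (-0.60 to 0.36), or -0.18 without HSP70 replicate 1. The difference between the 2 treatment effects, cortex minus hippocampus, was 0.56 ± 0.28 (SE), with a 95% interval of -0.02 to 1.14 and an adjusted p of 1.0 in edgeR's interaction test. The treatment effect on Bace2 was therefore not shown to differ between the tissues.

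**Figure D2:**
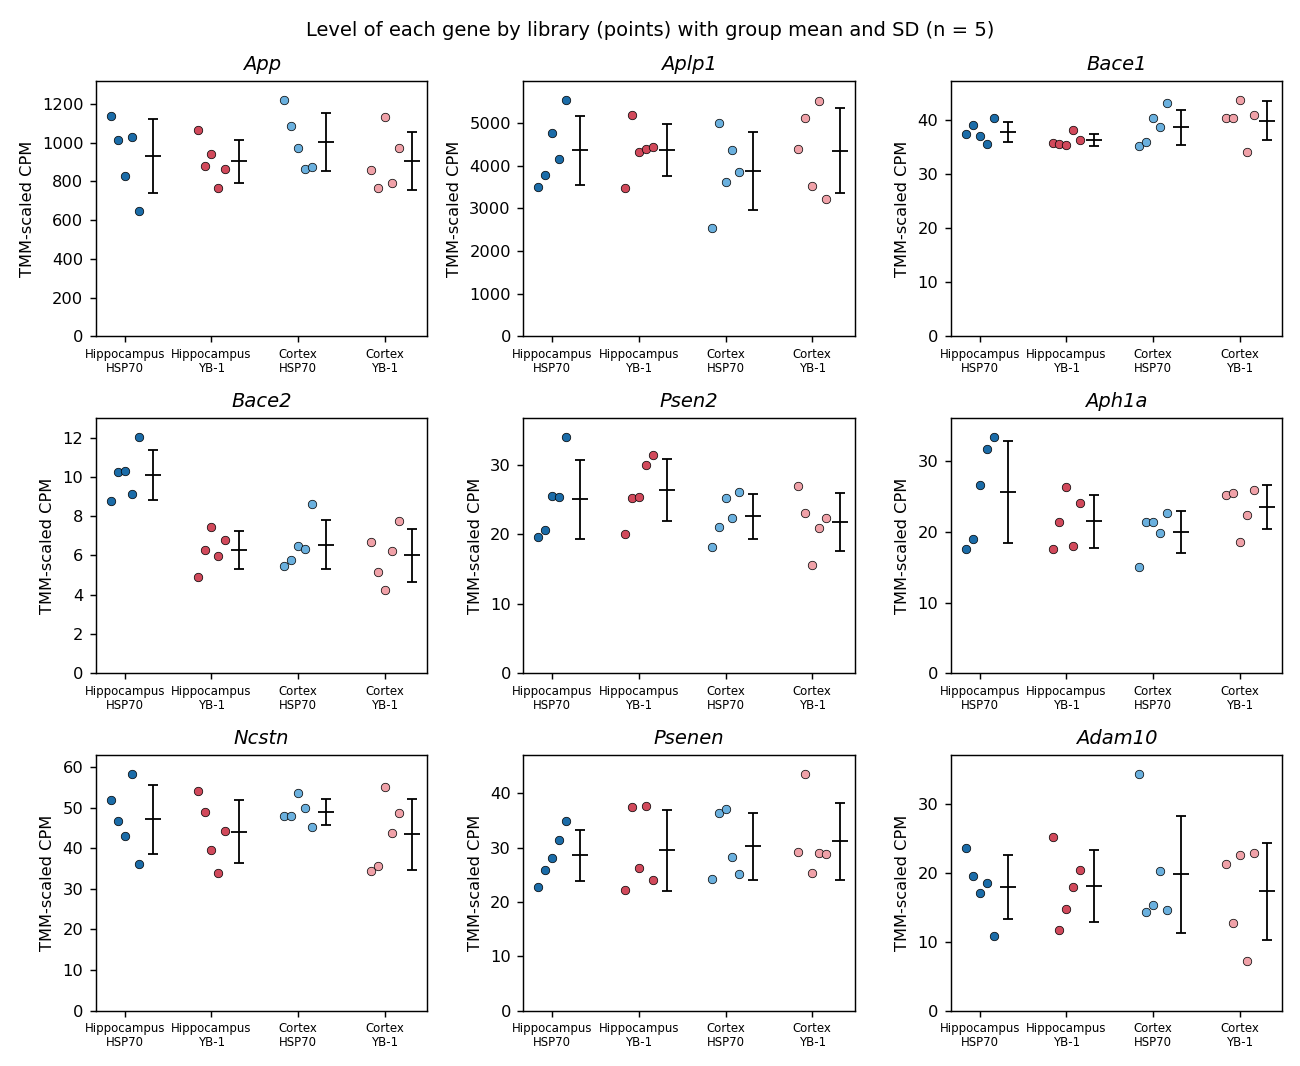
TMM-scaled CPM of each gene (vertical axes from 0) in the 4 groups of 5 libraries; points are libraries in the order of their replicate numbers, and bars are the mean and SD. For Bace2 the hippocampal HSP70 libraries, from 8.79 to 12 CPM, lie above all others of the 20; Bace1 stays between 34.0 and 43.6 CPM.

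Bace2 also separated the tissues in the HSP70 animals. Its hippocampal level was above its cortical level in all 5 numbered pairs of HSP70 libraries, and the groups did not overlap, with 8.79 CPM as the lowest hippocampal and 8.64 CPM as the highest cortical value. Such a separation was seen for 8.75% of genes. The log2 fold change, hippocampus over cortex, was 0.62 ± 0.20 (SE, 95% interval 0.22 to 1.03), with an adjusted p of 0.0484 by edgeR's quasi-likelihood test. Bace2 was thus 1 of 709 genes called higher in the hippocampus, 4.85% of those tested, while 550 were called lower, 3.76%, which made 1259 called in all, 8.61%. It was the only 1 of the 9 members called. With YB-1 the hippocampal level of Bace2 was the higher in 2 of 5 pairs, and the log2 fold change was 0.06 (-0.36 to 0.48). No member was called with YB-1, where 6.51% of genes were, 3.30% higher and 3.21% lower. At an unadjusted p under 0.05 stood 1 member, Bace2, with HSP70 and 0 with YB-1, against 20.1% and 16.7% of all genes.

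The call for Bace2 between the tissues lies close to the threshold. It was kept in 9 and lost in 19 of 28 other settings, with adjusted p-values from 0.0144 to 0.201, and 14 of the losses came from leaving out a single library. These were HSP70 replicates 2 to 5 of the hippocampus and 1 to 4 of the cortex, and YB-1 replicates 1, 2, 3 and 5 of the hippocampus and 1 and 2 of the cortex. The log2 fold change stayed between 0.53 and 0.74 in all of them. It was 0.55 without HSP70 replicate 5 of the hippocampus and 0.56 without HSP70 replicate 1 of the cortex, with adjusted p-values of 0.115 and 0.125 by edgeR. The comparison of tissues and the comparison of treatments share the same 5 hippocampal HSP70 libraries. In every group the ratio of Bace1 to Bace2 per kilobase was above 1, with geometric means of 4.75 in the hippocampal HSP70 group, 7.33 with YB-1, and 7.52 and 8.51 in the cortex.

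**Figure D3:**
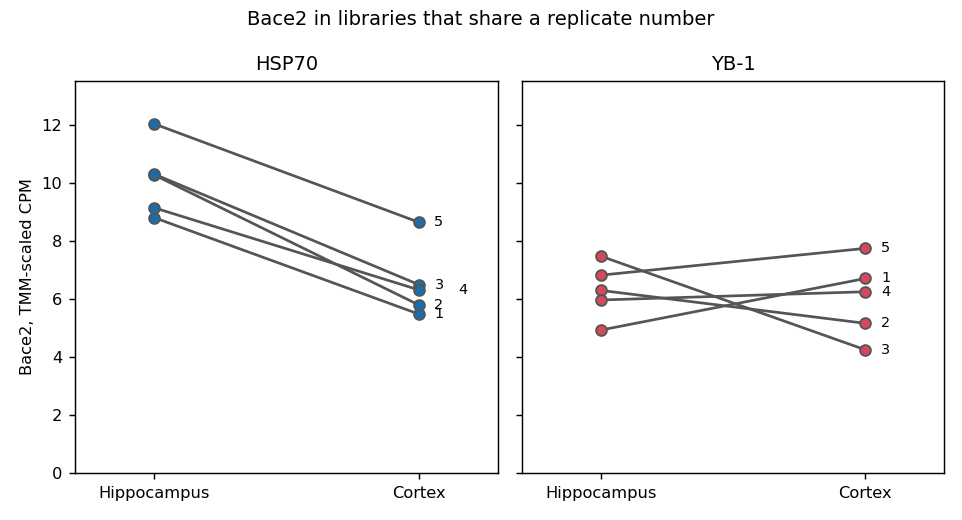
TMM-scaled CPM of Bace2 in the hippocampal and cortical library of each replicate number (lines, numbered 1 to 5), with HSP70 on the left and YB-1 on the right. With HSP70 every line falls from hippocampus to cortex; with YB-1 only 2 of 5 do.

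Markers of other cell types were measured in the same groups. Between treatments in the hippocampus no marker of any list passed the adjusted test. All 8 markers of meningeal fibroblasts were below 0 with YB-1, with a median log2 fold change of -0.41. So were 4 of 4 erythrocyte markers (-0.47) and 6 of 6 oligodendrocyte markers (-0.19). Above 0 were 5 of 5 endothelial (0.19), 5 of 5 hippocampal neuron (0.21) and 5 of 6 microglial markers (0.18). The other lists had markers on both sides of 0. The summed level of the meningeal markers was 994 to 2031 CPM with HSP70 and 643 to 1256 CPM with YB-1. That of the erythrocyte markers was 98.4 to 547 and 81.0 to 378 CPM, so the groups overlapped for both lists. Endothelial sums did not overlap, at 131 to 174 CPM with HSP70 and 176 to 191 CPM with YB-1. In the cortex no marker passed either. Below 0 with YB-1 were 6 of 6 GABAergic (median -0.45), 4 of 4 erythrocyte (-0.58) and 4 of 4 tested choroid plexus markers (-0.92). Above 0 were 2 of 2 tested ependymal markers (0.31), and the other lists were mixed. Cortical GABAergic sums did not overlap, at 699 to 886 CPM with HSP70 and 511 to 603 CPM with YB-1. How often sums of other gene sets separate so was not counted. Every marker of these lists had reads in each group.

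Between the tissues of the HSP70 animals 6 of 6 oligodendrocyte, 3 of 4 ependymal, 2 of 5 choroid plexus and 2 of 4 thalamic neuron markers were called higher in the hippocampus, with medians of 1.52, 2.48, 3.66 and 1.23. The summed levels, hippocampus against cortex, were 3723 to 6826 against 1359 to 2273 CPM for oligodendrocytes and 22.3 to 68.5 against 7.55 to 18.4 CPM for ependyma. They were 33.4 to 1612 against 10.1 to 153 CPM for choroid plexus and 60.9 to 288 against 38.0 to 48.8 CPM for thalamic neurons. With YB-1 the same lists had 6, 2, 4 and 2 markers called higher, with medians of 1.11, 1.43, 4.86 and 1.33. Other lists went the other way. With HSP70, 3 of 6 GABAergic and 2 of 6 general neuron markers were called lower in the hippocampus, with medians of -0.46 and -0.31. With YB-1 the counts were 2 and 1, with medians of -0.20 and -0.22. Of 8 meningeal fibroblast markers 3 were called lower and 1 higher with YB-1 (median -0.61). The part of these cells in the Bace2 values was not tested.

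The gamma-secretase subunits showed no difference between treatments beyond their spread. Aph1a measured 17.6, 19.0, 26.6, 31.6 and 33.4 CPM in the hippocampus with HSP70 and 17.5, 21.4, 26.3, 18.0 and 24.1 CPM with YB-1. In the cortex it measured 15.0, 21.3, 21.3, 19.8 and 22.6 CPM with HSP70 and 25.2, 25.5, 18.6, 22.4 and 25.9 CPM with YB-1. The groups overlapped in both tissues, and the log2 fold changes pointed opposite ways, -0.25 (-0.68 to 0.18) in the hippocampus and 0.23 (-0.11 to 0.57) in the cortex. The difference between them was 0.49 ± 0.26 (SE), with an adjusted p of 1.0 in edgeR's interaction test, so the 2 tissues were not shown to differ. Between the tissues of the HSP70 animals Aph1a had a log2 fold change of 0.36 (-0.01 to 0.73) and an adjusted p of 0.272.

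Ncstn had hippocampal means of 47.1 ± 8.45 CPM with HSP70 and 44.1 ± 7.85 with YB-1, and cortical means of 48.9 ± 3.15 and 43.5 ± 8.74 (SD, n = 5 each). Its log2 fold changes, YB-1 over HSP70, were -0.10 (-0.44 to 0.25) and -0.17 (-0.48 to 0.14). Psen2 had hippocampal means of 25.0 ± 5.68 and 26.4 ± 4.51 CPM and cortical means of 22.6 ± 3.23 and 21.8 ± 4.13. It was higher in the hippocampus in 4 of 5 numbered pairs with either treatment, though neither difference passed the test, with log2 fold changes of 0.14 (-0.21 to 0.50) with HSP70 and 0.28 (-0.08 to 0.63) with YB-1.

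Psenen had means of 28.6 ± 4.71 and 29.5 ± 7.48 CPM in the hippocampus and 30.2 ± 6.15 and 31.2 ± 7.10 CPM in the cortex, with HSP70 and YB-1 respectively (SD, n = 5 each). Its log2 fold change was 0.04 in both tissues, with intervals of -0.35 to 0.44 and -0.34 to 0.42. Relative to Ncstn and per kilobase, the geometric mean ratio in the 4 groups was 0.685 to 0.893 for Psen2, 0.428 to 0.575 for Aph1a and 2.59 to 3.05 for Psenen. These ratios depend on the length used, and by the exon union they were 0.421 to 0.549, 0.468 to 0.629 and 1.90 to 2.23.

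Adam10 was the most variable gene of the list, with a coefficient of variation of 33.2% over the 20 libraries. It measured 23.6, 19.5, 17.1, 18.5 and 10.8 CPM in the hippocampus with HSP70 and 25.3, 11.7, 14.8, 18.0 and 20.4 CPM with YB-1. In the cortex it measured 34.3, 14.3, 15.4, 20.2 and 14.6 CPM with HSP70 and 21.3, 12.7, 22.6, 7.16 and 22.8 CPM with YB-1. The highest value, in HSP70 replicate 1 of the cortex, was 4.79 times the lowest, in cortical YB-1 replicate 4, and all groups overlapped. The log2 fold changes were 0.01 (-0.48 to 0.50) in the hippocampus, or -0.12 without HSP70 replicate 5, and -0.18 (-0.83 to 0.47) in the cortex. The cortical value was 0.12 without HSP70 replicate 1, and it ran from -0.29 to 0.12 over the 10 libraries left out in turn.

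**Figure D4:**
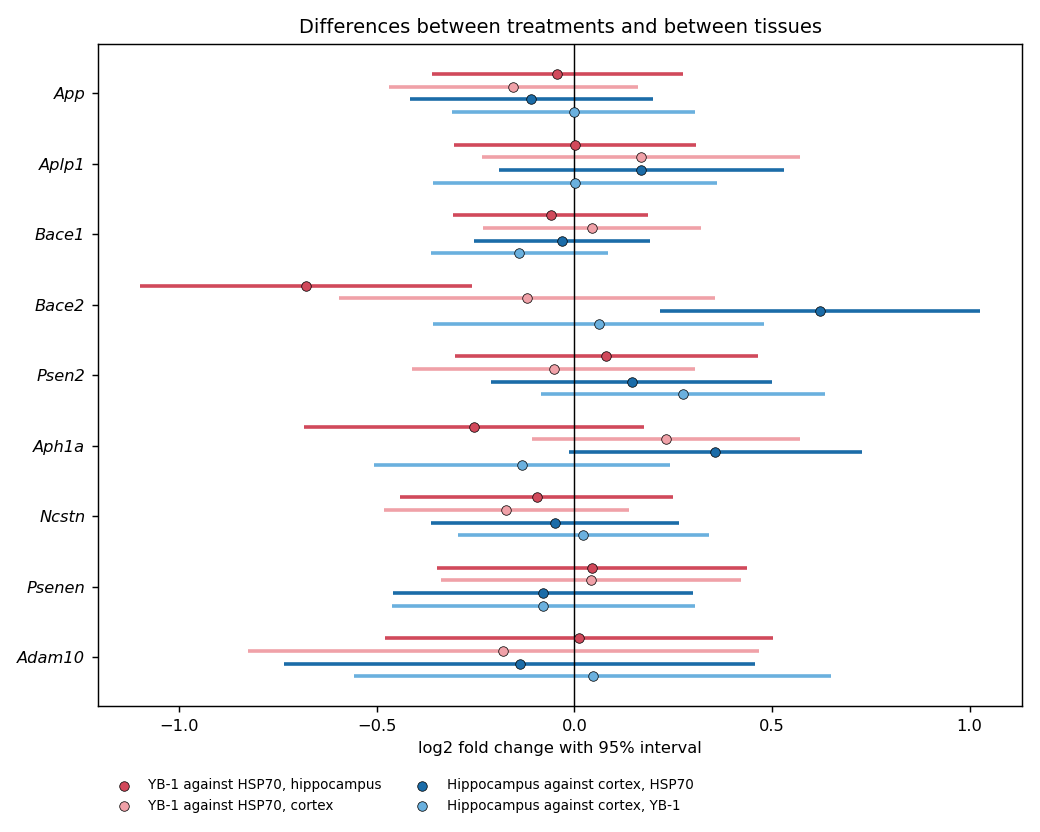
Log2 fold change (point) with its 95% interval (line) of each gene for YB-1 over HSP70 in each tissue and for hippocampus over cortex with each treatment. Intervals of Bace2 lie off 0 for the hippocampal treatment comparison, -1.10 to -0.26, and for the tissues with HSP70, 0.22 to 1.03; the others shown include 0.

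Of 13723 genes tested in the hippocampus 0 were called, 0.00%, with 329 at an unadjusted p under 0.05, 2.40%; DESeq2 and limma-voom also called 0. Of 14114 genes in the cortex 0 were called by edgeR, 0.00%, with 774 at an unadjusted p under 0.05, 5.48%; DESeq2 called 4 and limma-voom 1. Of the 9 members 0 were called in either tissue, and Bace2 in the hippocampus was the only 1 with an unadjusted p under 0.05. The interaction test called 0 of 14616 genes, 0.00%, with 227 at an unadjusted p under 0.05, 1.55%. The median log2 fold change of the 9 members was -0.04 in the hippocampus and -0.05 in the cortex, against 0.00 and 0.01 over all genes tested.

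Other genes around the precursor were taken from 5 lists. Of these, 6 are paralogues and other subunits, 10 are other proteases of the precursor, 34 act in its binding and traffic, 30 regulate the secretases or their maturation, and 30 are other substrates of the same enzymes. Apart from Mep1b, which was too low to test, all were tested, and 0 passed in either tissue when the treatments were compared. The median log2 fold changes of the lists lay between -0.02 and 0.06 in the hippocampus and between -0.15 and 0.10 in the cortex.

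The most abundant genes of these lists, in reads per library, included the lysosomal proteases Ctsb, at 731 ± 80.3 CPM in the hippocampus with HSP70 and 772 ± 102 with YB-1 (SD, n = 5 each), and Ctsd, at 382 ± 75.7 and 418 ± 46.5. Apbb1, which binds the precursor's tail inside the cell, measured 809 ± 86.4 and 807 ± 81.9 CPM in the hippocampus. Itm2c, of the BRI family of membrane proteins, measured 1453 ± 172 and 1316 ± 80.2 CPM. Cx3cl1, a neuronal chemokine shed by Adam10 and Adam17, measured 710 ± 52.5 and 715 ± 43.9 CPM.

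Between the tissues, 4 of 30 secretase regulators and 6 of 30 other substrates were called with HSP70, against 8.61% of all genes, and none of 6 paralogues, 34 adaptors or 9 tested proteases. With YB-1 the counts were 4 of 30 regulators and 3 of 30 substrates, against 6.51%. Of the regulators, 3 were called with both treatments. The share of all genes called with both was not counted, so these calls cannot be set against it. The genes named here were chosen after their values were seen. Tspan15, a tetraspanin that accompanies Adam10, was higher in the hippocampus, with 32.6 ± 2.90 CPM against 17.2 ± 2.83 in the HSP70 animals (SD, n = 5 each). Its log2 fold change was 0.92 ± 0.15 (SE, edgeR adjusted p 0.000126) with HSP70 and 0.89 ± 0.15 (adjusted p 0.00028) with YB-1. Dlg1 was lower in the hippocampus by log2 fold changes of -0.91 and -0.82, and Fbxw7, part of a ubiquitin ligase, by -1.06 and -0.73. The other regulators called were Tspan5 (log2 fold change -0.62) with HSP70 and Tspan33 (0.73) with YB-1, whose calls were lost with 1 and 2 of 20 libraries left out. The substrates called with both treatments were Pcdh20, at 1.64 and 2.32, and Fgfr1, at 0.94 and 1.0.

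Several members varied together from library to library within a tissue. Of 36 pairs of members, 5 in the hippocampus and 1 in the cortex had an adjusted p under 0.05 by permutation of the 10 libraries of a tissue, and 30 of 36 pairs had the same sign in both tissues. The p-values were adjusted over 108 relations, which include those with the 2 trends below. Aplp1 and Adam10 were the pair found in both. Their Pearson r was -0.91 in the hippocampus (Spearman's rho -0.83, adjusted permutation p 0.00702 and 0.0344) and -0.83 in the cortex (rho -0.89, adjusted permutation p 0.023 and 0.0282). Without the 2 libraries farthest from the median of Aplp1 the r was -0.81 and -0.59. Within the 5 libraries of each treatment r was -0.95 and -0.88 in the hippocampus and -0.80 and -0.87 in the cortex.

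The other 4 hippocampal pairs all involved App or Aplp1. App had r = -0.86 with Aplp1, -0.88 with Psen2 and 0.81 with Ncstn, and Aplp1 had 0.80 with Psen2 (n = 10 libraries each, adjusted permutation p from 0.00702 to 0.0329). Their rho was -0.87, -0.88, 0.84 and 0.76, and without the 2 farthest libraries their r was -0.71, -0.77, 0.79 and 0.63. The rho of Aplp1 with Psen2 did not pass (adjusted permutation p 0.0784). None of the 4 passed in the cortex.

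These levels also moved with trends that ran through all genes of a library. A GC trend was computed for each library as the median deviation of genes in the top quartile of GC content less that of genes in the bottom quartile, in log2. Aplp1, with 59.4% GC the richest of the 9 transcripts, had r = 0.94 with this trend in both tissues (rho 0.83 and 0.94, adjusted permutation p 0.00702 and 0.0054 for r). Adam10, with 42.1% GC the poorest, had r = -0.92 and -0.91 (rho -0.85 and -0.90, adjusted permutation p 0.00702 and 0.00828 for r). Both genes lie in the quartiles that define the trend, cut at 55.25% and 46.06% GC, so its definition favours these signs. How many other genes reach such an r was not counted. The trend was highest in hippocampal HSP70 replicate 5, at 0.58, and lowest in cortical HSP70 replicate 1, at -0.92, and these held the highest Aplp1 (5542 CPM) and the highest Adam10 (34.3 CPM) of all libraries. Without the 2 libraries farthest from the median the r of Aplp1 with the trend was 0.89 and 0.85. A trend of long against short genes was computed likewise. App, at 46.1% GC, had r = 0.90 and 0.85 with it in the hippocampus and cortex (rho 0.85 and 0.70, adjusted permutation p for rho 0.0282 and 0.119). With 8167 bases App is itself in the long quartile, which starts at 4972 bases. The length trend was followed about as closely by Aplp1, with r = -0.88 and -0.89, and Adam10, with r = 0.80 and 0.85 (adjusted permutation p from 0.00702 to 0.0329). App in turn had r = -0.71 and -0.84 with the GC trend (adjusted permutation p 0.0865 and 0.00891), so these genes do not divide between the 2 trends. Psenen, at 708 bases, had r = -0.90 and -0.67 with the length trend (rho -0.93 and -0.82, adjusted permutation p for rho 0.0108 and 0.0354). Psen2 had r = -0.82 and -0.62 with it (adjusted permutation p 0.0281 and 0.150).

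**Figure D5:**
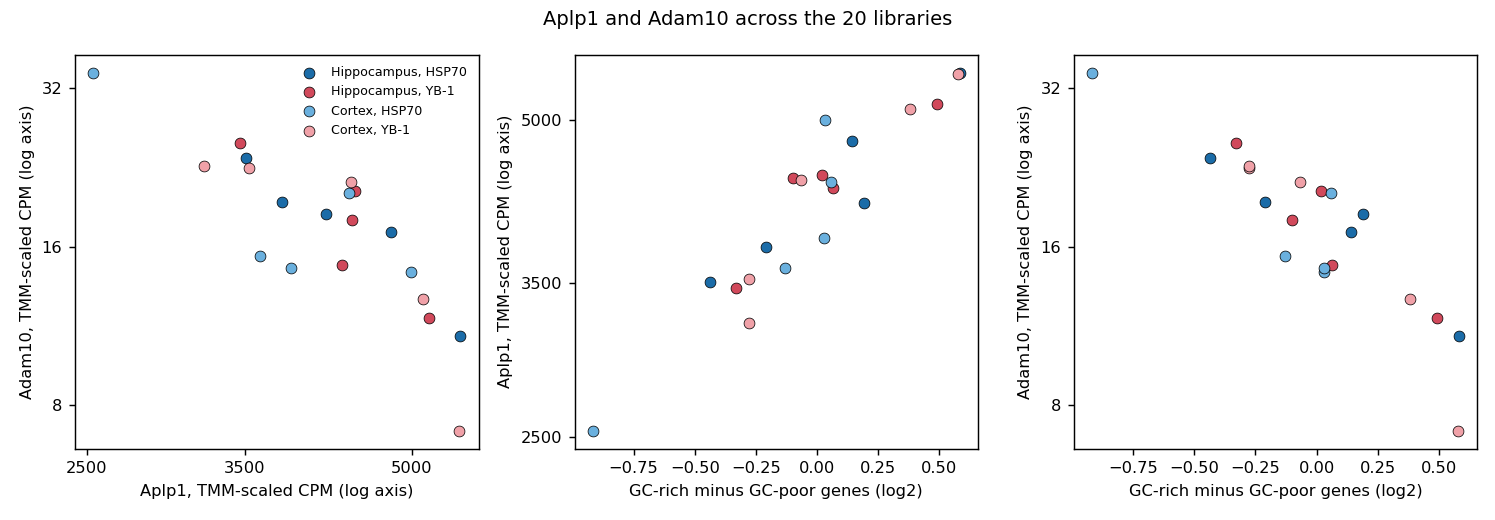
Left, TMM-scaled CPM of Adam10 against Aplp1 (log axes); middle and right, each against the GC trend of the library in log2, GC-rich minus GC-poor genes; points are the 20 libraries, coloured by group. Adam10 is lowest where Aplp1 is high (r = -0.91 in the hippocampus, -0.83 in the cortex), and the cortical HSP70 library at a trend of -0.92 has the highest Adam10, 34.3 CPM.

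With the GC trend as a covariate, an alternative added after the data were seen, the standard error of Aplp1 in the cortical treatment comparison fell from 0.191 to 0.0984 and that of Adam10 from 0.304 to 0.16. Neither gene was called, and both log2 fold changes took the opposite sign, from 0.17 to -0.04 for Aplp1 and from -0.18 to 0.13 for Adam10. Bace2 in the hippocampus had -0.67 with the covariate against -0.68 without it. The part of the trend in the covariation of Aplp1 and Adam10 was not tested.

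The stretches upstream of the start of Aplp1 and Adam10 are shown because this pair moved in opposite directions in both tissues. They are the 250 bases before each RefSeq start on GRCm38.p6, 5′ to 3′ on the gene's strand, with the GC box letters GGGCGG or their complement CCGCCC in capitals, overlapping copies included. The bases just after the RefSeq start were found near the start of an annotated GENCODE transcript for Adam10 but not for Aplp1, so the Aplp1 start is the less certain.
Aplp1, chr7:30445583-30445832, minus strand: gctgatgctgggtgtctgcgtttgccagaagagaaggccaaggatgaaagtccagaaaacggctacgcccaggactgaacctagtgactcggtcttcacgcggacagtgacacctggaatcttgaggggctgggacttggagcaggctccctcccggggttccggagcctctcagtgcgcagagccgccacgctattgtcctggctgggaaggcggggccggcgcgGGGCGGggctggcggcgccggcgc
Adam10, chr9:70678732-70678981, plus strand: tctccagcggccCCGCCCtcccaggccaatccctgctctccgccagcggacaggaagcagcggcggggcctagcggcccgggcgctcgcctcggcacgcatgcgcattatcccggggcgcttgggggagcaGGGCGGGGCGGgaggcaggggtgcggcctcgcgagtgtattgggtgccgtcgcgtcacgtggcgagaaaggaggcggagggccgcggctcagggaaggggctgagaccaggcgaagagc
Both stretches are rich in G and C, 66.0% for Aplp1 and 74.0% for Adam10, against a median of 52.4% over 32851 windows of the same length. The letters GGGCGG on either strand occur once in Aplp1 and 3 times in Adam10, and in 32.7% of all windows. The TATA box letters TATAAA occur in neither, and in 12.4% of all windows. A match is a description of these letters and not a binding site. The 2 genes differ in the GC content of their transcripts, 59.4% and 42.1%, and both have GC-rich upstream stretches. Windows were found for 7 of the 9 genes; Bace1 and Bace2 are named only.

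For each member the 3 genes most like it were taken by the Pearson r of log2 CPM after subtracting group means, over the 20 libraries and 10626 other genes. They are a description, with no test, since the libraries share the trends above. Nearest to App were Cadps, Kif1b and Dhx9 (r = 0.94 each), and nearest to Aplp1 were Strn4, Ipo13 (0.98 each) and Scamp5 (0.97). Adam10 went with Rab10 (0.97), Ppm1e (0.96) and Rmnd5a (0.94), and Psenen with Cops9 (0.95), Romo1 (0.93) and Rex1bd (0.92). Psen2, Aph1a and Ncstn had nearest genes at 0.88, 0.88 and 0.86, namely 2310061I04Rik, Rras and Lbh. The beta-secretases had looser company: Bace2 was nearest to Rarres2, an ependymal marker of the list above, at 0.83, and Bace1 to Dcn, a marker of meningeal fibroblasts, at 0.71.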

How the data were processed

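Poly(A) RNA was sequenced single-end from 20 libraries. The authors deposited integer counts of reads for each Ensembl gene. The submitters' processing notes name Trimmomatic, STAR, featureCounts and GRCm39. For versions, annotation release and strand setting the status is not given in the sources used here, so overlapping and antisense genes are uncertain. Symbols, lengths and GC content came from GENCODE M21 (99.38% of identifiers matched, holding 99.98% of reads), an annotation of the earlier build, and upstream sequences from RefSeq on GRCm38.p6. The 12 summary entries that name no gene were left out (no-feature reads were 2.45% to 4.58% of a library).

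Genes were tested with edgeR 4.0.16 (R 4.3.3): TMM, filterByExpr, robust quasi-likelihood F-tests, two-sided, Benjamini-Hochberg over all genes tested, threshold 0.05. Treatments were fitted within each tissue, and tissues and the interaction in 1 model of all libraries. These main fits held no term for the replicate number, so their tissue tests ignore any pairing of libraries. The setting called replicate block adds that term. Log2 CPM used a prior count of 2. Correlations used two-sided permutation tests with 100000 resamples. Scripts were tested on simulated data. No library was a duplicate (chi-square per degree of freedom at least 10.1 in 40 pairs). Deviations from group means correlated at 0.21 to 0.659 (HSP70) and 0.218 to 0.416 (YB-1) between same-numbered hippocampal and cortical libraries. Between treatments, same-numbered libraries correlated at -0.304 to 0.527 in the hippocampus and -0.156 to 0.188 in the cortex. The numbers were taken to pair the tissues in the counts of numbered pairs and in the replicate block. Libraries of different number were not compared, so it was not shown that a number marks an animal. DESeq2 1.42.0, limma 3.58.1 and other settings were tried as alternatives. The genes named are all members, the paralogues, the most abundant of each list, any list gene past the threshold between treatments, and the 3 most like each member. Some genes that this rule takes are left unreported. The members and lists were chosen with earlier results of these data known.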

Additional observations from a re-analysis of the deposited data

Results flagged for a closer look

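In 36 groups of 5 libraries, 1 for each gene, tissue and treatment, the highest or lowest library was compared with the rest by Dixon's gap. A single value stood apart. Psenen measured 43.5 CPM in YB-1 replicate 2 of the cortex, where the other 4 libraries lay between 25.3 and 29.3 CPM. Its gap to the nearest library was 0.779 of the group's range, above the critical value of 0.71. Chance gives such a value in about 1 in 20 groups.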

How the results depend on the processing

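Depth limits Bace2 most, with 34 to 125 reads per library, and the 95% intervals of the other members between treatments reach up to -0.83 (Adam10, cortex) on the log2 scale. For fold changes near 0 the sign carried no information, and every member that changed sign stayed below the threshold; for each sign change and moved count below, the cause was not tested. The count of genes called was 0 in each setting for the hippocampal treatments and the interaction. For the cortical treatments it was 0 in edgeR, 4 with DESeq2, 1 with limma-voom, 9 without the filter on low counts and 2 with the GC trend as a covariate, and 0 to 1 with a library left out. The tissue counts with YB-1 rose from 952 to 1592 with the GC trend and 1607 with the GC trend and replicate block; leaving out a library gave 714 to 1067, and 1034 to 1387 with HSP70. The replicate block alone gave 1777 genes with HSP70 and 1224 with YB-1, 0 in the other comparisons, and changed no call of a member (Bace2 adjusted p 0.0454 in edgeR).

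Sign changes of log2 fold changes were as follows. For treatments in the hippocampus, Aplp1 was -0.0085 with DESeq2, -0.0085 with RLE size factors, -0.0019 without the filter and -0.0011 in thinned libraries. There limma-voom gave -0.040 for Psenen and -0.050 for Adam10, and the GC trend -0.016 for Adam10. In the cortex, limma-voom gave -0.033 for Psenen and 0.099 for Adam10, thinning -0.0016 for Psenen, and the GC trend -0.040 for Aplp1, -0.063 for Psenen and 0.13 for Adam10. For the interaction, Psenen was 0.011 with DESeq2, 0.012 with RLE, 0.0071 with limma-voom and 0.021 with the replicate block. There limma-voom gave -0.0045 for Aplp1 and 0.15 for Adam10. The GC trend gave 0.0024 for App, -0.044 for Aplp1 and 0.14 for Adam10, and with the replicate block -0.089 for Aplp1 and 0.16 for Adam10. Between tissues with HSP70, Adam10 was 0.10 with limma-voom, 0.19 with the GC trend and 0.23 with the replicate block added, which also gave -0.034 for Aplp1 and 0.039 for Bace1. With YB-1, Aplp1 was -0.015 with DESeq2, -0.015 with RLE, -0.012 with thinning and -0.0028 without the filter. There limma-voom gave 0.018 for App and -0.046 for Adam10, thinning -0.037 for Ncstn and the replicate block 0.0048 for App.

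With a library left out, treatments in the hippocampus ranged from -0.15 to 0.039 for App, -0.068 to 0.10 for Aplp1, -0.062 to 0.13 for Psenen and -0.14 to 0.13 for Adam10, and in the cortex from -0.14 to 0.049 for Psen2, -0.11 to 0.13 for Psenen and -0.29 to 0.12 for Adam10. The interaction ranged from -0.17 to 0.014 for Ncstn, -0.15 to 0.099 for Psenen and -0.31 to 0.11 for Adam10. Tissues with HSP70 ranged from -0.067 to 0.011 for Bace1, -0.14 to 0.030 for Ncstn, -0.16 to 0.0037 for Psenen and -0.26 to 0.15 for Adam10, and with YB-1 from -0.075 to 0.083 for App, -0.090 to 0.10 for Aplp1, -0.053 to 0.17 for Bace2, -0.069 to 0.11 for Ncstn, -0.18 to 0.070 for Psenen and -0.14 to 0.17 for Adam10.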
